A study of Mus musculus with 16 samples.

Results

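Guanylate-binding proteins are large GTPases that interferons induce in many cell types, and in mice their genes lie in 2 clusters, one on chromosome 3 and one on chromosome 5. The 9 genes described here are Gbp2, Gbp2b, Gbp3, Gbp4, Gbp5, Gbp6, Gbp7, Gbp8 and Gbp9, taken by gene name from the 55487 genes of the deposited table. They were chosen by family name and by their levels with and without the transgene, since the choice names Gbp2b for having no reads without it. Levels with and without the transgene are therefore given as a description with no test. Tests are kept to the effect of the Ch25h knockout and to its difference with and without the transgene. These tests use the same libraries as the choice of genes, so they are not independent of it.

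The samples were 16 hippocampal RNA libraries from female mice, 4 of each of 4 genotypes, labelled as 40 weeks of age, and as 9.5 months in the treatment protocol. TCKO mice carried the PS19 transgene and lacked Ch25h, T mice carried the PS19 transgene with Ch25h intact, CKO mice lacked Ch25h without the transgene, and WT mice had neither change. PS19 is a human tau gene of the 1N4R form with the P301S mutation that causes a familial frontotemporal dementia, expressed from the prion protein (PrP) promoter. Ch25h encodes cholesterol 25-hydroxylase, which makes 25-hydroxycholesterol. Mice were perfused with PBS, the hippocampus came from the right hemisphere, and no further agent was given. Whether each numbered replicate was its own mouse is not in the labels, and the p-values therefore rest on the variation among libraries, which may be technical.

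Interferon gamma acts through its receptor and the kinases Jak1 and Jak2, and the factor Irf1 helps to switch on guanylate-binding protein genes. The proteins gather on the membranes of vacuoles and bacteria, where they help to expose microbial products to inflammasomes. In the brain they are known as part of the interferon response of microglia and other cells.

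The libraries held 24057188 to 31359268 estimated reads in TCKO, 26247317 to 32295230 in T, 15064309 to 26417541 in CKO and 28878646 to 34348284 in WT. Ch25h itself was at 0 to 0.0371 CPM (reads scaled to a common library size) in TCKO and 4.15 to 9.55 CPM in T, and at 0 to 0.0819 CPM in CKO and 0.581 to 1.41 CPM in WT. Markers of hippocampal neurons were read in every genotype, with no marker at 0. Choroid plexus markers summed to 7798 CPM in T replicate 4 and 7428 CPM in WT replicate 1, against at most 458 CPM in the other libraries, and results that turn on these libraries are given without them too. In whole tissue, fewer cells of a type and less RNA per cell cannot be told apart.

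Coordinates are those of GRCm38. The chromosome 3 cluster spans 144.0 kb on the plus strand and holds, in order, Gbp5 (chr3:142493978-142522344), Gbp7 (chr3:142530342-142550149), Gbp3 (chr3:142560026-142573209), Gbp2b (chr3:142594847-142619179) and Gbp2 (chr3:142620602-142638008). The chromosome 5 cluster spans 279.5 kb on the minus strand and holds Gbp8 (chr5:105014150-105139540), Gbp9 (chr5:105077630-105139539), Gbp4 (chr5:105115767-105139586) and Gbp6 (chr5:105270702-105293698). The annotated spans of Gbp8, Gbp9 and Gbp4 overlap on 1 strand. All 9 are annotated as protein-coding.

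RefSeq promoter windows of GRCm38.p6 were at hand for 5 of the 9 genes, the 5 of the chromosome 3 cluster. The 250 bases before the RefSeq start of Gbp2b, of its neighbour Gbp2 and of Gbp7 are printed because these 3 genes fell in TCKO against T yet differed in whether they were read without the transgene. Capitals mark matches to an interferon-stimulated response element, searched as GAAA, any 2 bases and GAAA, or on the other strand TTTC, any 2 bases and TTTC, and to a gamma-activated site, searched as TTCNNNGAA, which reads the same on both strands. These lie at chr3:142594597-142594846, chr3:142620413-142620662 and chr3:142530086-142530335, all on the plus strand and written 5′ to 3′.
Gbp2b: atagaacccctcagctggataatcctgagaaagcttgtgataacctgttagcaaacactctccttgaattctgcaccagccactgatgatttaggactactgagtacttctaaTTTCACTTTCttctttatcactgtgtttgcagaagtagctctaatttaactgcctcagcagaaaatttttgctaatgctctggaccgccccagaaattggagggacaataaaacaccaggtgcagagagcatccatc
Gbp2: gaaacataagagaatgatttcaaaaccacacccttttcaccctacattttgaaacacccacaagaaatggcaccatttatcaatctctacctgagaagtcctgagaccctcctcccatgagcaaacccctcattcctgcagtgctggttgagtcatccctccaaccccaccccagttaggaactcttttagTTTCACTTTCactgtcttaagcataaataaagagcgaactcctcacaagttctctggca
Gbp7: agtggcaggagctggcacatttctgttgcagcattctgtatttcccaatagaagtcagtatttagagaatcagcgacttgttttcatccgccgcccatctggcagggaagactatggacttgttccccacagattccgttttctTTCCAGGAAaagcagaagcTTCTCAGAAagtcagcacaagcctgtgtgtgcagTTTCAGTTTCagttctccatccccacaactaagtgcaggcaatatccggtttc
The window of Gbp2b held TTTCACTTTC, starting 137 bases before the start, and that of Gbp2 held the same 10 letters 59 bases before it. Gbp7 had TTTCAGTTTC 53 bases before its start and gamma-activated site matches 106 and 87 bases before it. Over windows from 250 bases before to 50 after the start, all 5 genes had a response element match in at least 1 window, in 5 of 6 windows, against 3.44% of all 32851 promoter windows. A gamma-activated site match was in the windows of 2 genes, Gbp5 and Gbp7, against 8.3% of all windows. The response element and gamma-activated site matches did not overlap in the printed windows. A match is a description of letters and not a measured binding site. The letters are those of the reference genome, and the strains crossed are not in the labels, so the alleles read here may differ from them.

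Loss of Ch25h in transgenic mice went with lower levels of most of the family. In TCKO against T, 8 of the 9 genes fell, with log2 fold changes from -3.10 to -1.23, and in each of the 8 every TCKO library lay below every T library. Gbp2b, Gbp6, Gbp5 and Gbp2 fell most, to between 0.117 and 0.166 of their T level, and Gbp8 did not pass the test. Of the 18565 genes tested, 8.05% were called lower in this comparison and 4.81% higher, while 9.65% were lower with no overlap and 5.14% higher. The median of the 9 fold changes was -2.32, against 0.02 over all genes tested. All 9 genes passed the filter on low counts. Fold changes and adjusted p-values are from edgeR's quasi-likelihood test with Benjamini-Hochberg adjustment over all genes.

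Gbp2b, Gbp2 and Gbp5 are the mouse family members that carry a lipid anchor, added to the end of the protein by prenylation. Gbp2b, a mouse gene often called Gbp1, had 2.65, 3.26, 1.52 and 1.37 CPM in TCKO replicates 2 to 5, against 20.3, 22.5, 17.6 and 15.1 CPM in T replicates 2 to 5. These were 61, 103, 41 and 35 estimated reads in TCKO and 639, 614, 549 and 484 in T. Every TCKO library was far under the lowest T library, and in both genotypes replicate 3 was highest and replicate 5 lowest. Gbp2b fell by 3.10 ± 0.30 (SE) on the log2 scale (adjusted p = 9.83e-05). In the 4 CKO and the 4 WT libraries it had 0 reads.

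Gbp2, which gathers on vacuoles of intracellular pathogens such as Toxoplasma, had 10.1, 11.7, 5.67 and 4.33 CPM in TCKO, against 46.2, 52.0, 47.5 and 46.6 CPM in T. In the mice without the transgene it had 2.58, 5.78, 5.92 and 4.56 CPM in CKO (replicates 1, 2, 4 and 5), against 5.65, 5.22, 6.52 and 3.07 CPM in WT (replicates 1, 2, 4 and 5). The T libraries stood above all others and close to each other, and the CKO and WT libraries overlapped. Gbp2 fell by 2.59 ± 0.30 in TCKO against T (adjusted p = 4.65e-05).

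Gbp5, which promotes assembly of the Nlrp3 inflammasome, had 1.69, 1.30, 1.41 and 0.936 CPM in TCKO, against 11.0, 10.5, 7.997 and 7.43 CPM in T. It fell by 2.79 ± 0.39 (adjusted p = 0.000174). Without the transgene it had 0.942, 0.819, 3.45 and 1.21 CPM in CKO, against 0.936, 1.39, 0.720 and 0.671 CPM in WT. CKO replicate 4 alone stood above the WT libraries and above every TCKO library.

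Gbp3 and Gbp7 are the other members of the chromosome 3 cluster. Gbp3, whose cluster is needed for inflammasome responses to cytosolic bacteria, had 17.8, 29.8, 11.4 and 12.4 CPM in TCKO, against 77.7, 97.4, 79.4 and 102 CPM in T. It had 6.39, 7.76, 8.85 and 6.54 CPM in CKO, against 10.04, 13.5, 8.86 and 5.08 CPM in WT. TCKO replicate 3 was the highest of its genotype, still well below the lowest T library, and CKO and WT overlapped. Gbp3 fell by 2.32 ± 0.29 in TCKO against T (adjusted p = 6.86e-05).

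Gbp7, which helps to deliver oxidase subunits to vacuoles that hold microbes, had 12.2, 15.7, 9.75 and 10.9 CPM in TCKO, against 48.3, 55.0, 30.0 and 46.9 CPM in T. T replicate 4 was the lowest T library, and it was above every TCKO library. Gbp7 fell by 1.89 ± 0.19 (adjusted p = 2.32e-05), the smallest standard error among the 9. In mice without the transgene it ranged from 9.04 to 12.04 CPM in CKO and from 8.23 to 12.8 CPM in WT, and the TCKO libraries overlapped both.

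**Figure D1:**
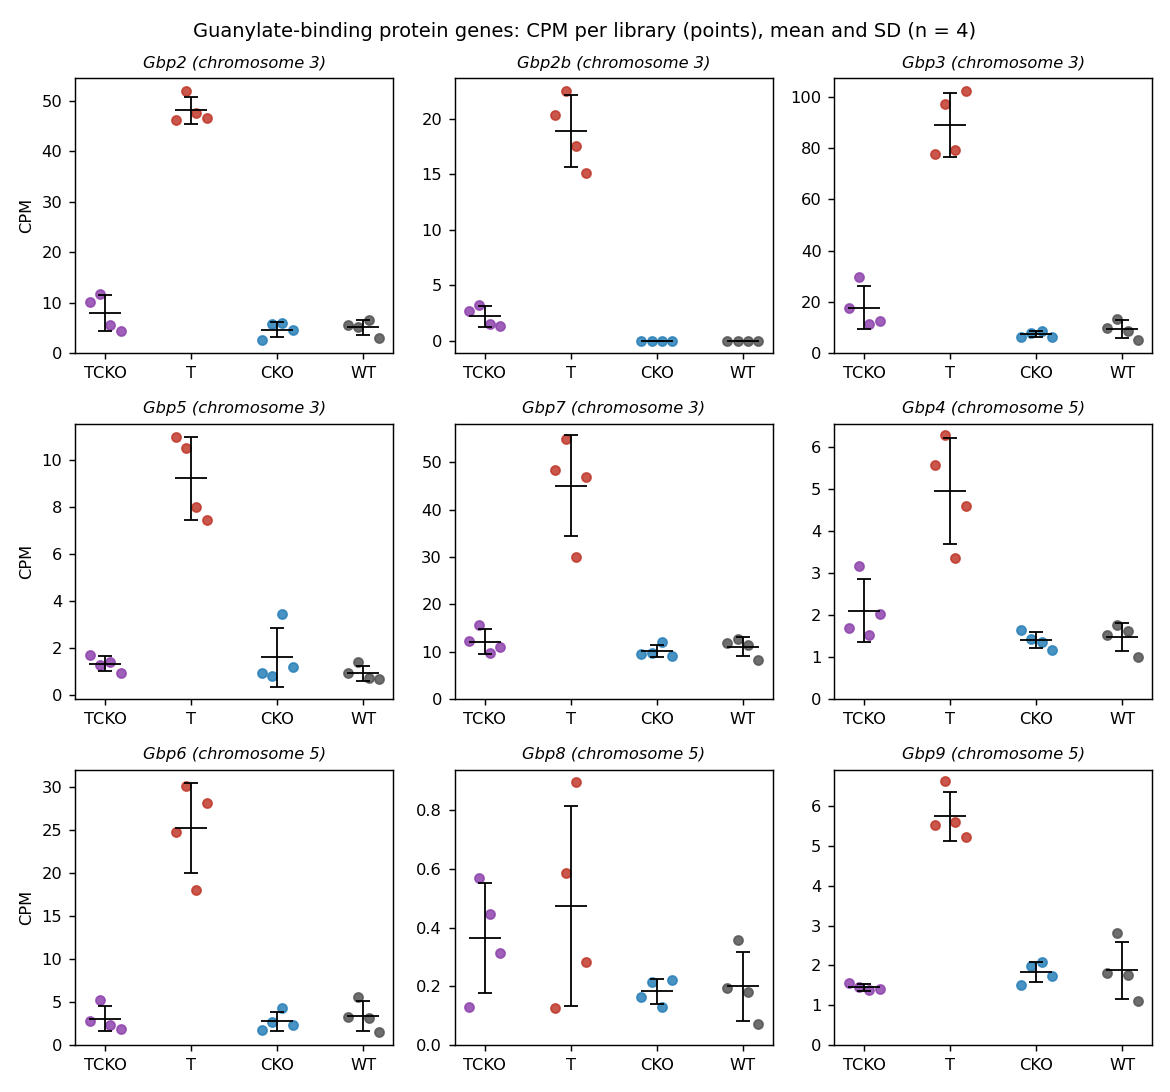
CPM of the 9 guanylate-binding protein genes in each library (vertical axis, linear, own scale per gene) by genotype, with the mean and SD of 4 libraries in black. In 8 genes all 4 T points lie above all TCKO points (Gbp2b 15.1 to 22.5 CPM in T), Gbp8 overlaps throughout, and Gbp2b is at 0 in CKO and WT.

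In the chromosome 5 cluster, 3 of 4 genes fell, with a median of -1.61 over the 4, and in the chromosome 3 cluster all 5 fell. Gbp6, which is recruited to Toxoplasma vacuoles, had 2.78, 5.20, 2.34 and 1.83 CPM in TCKO, against 24.7, 30.1, 18.1 and 28.2 CPM in T. The groups were far apart, and Gbp6 fell by 3.05 ± 0.39 (adjusted p = 7.99e-05). Its sequence is largely shared with other genes, since 74.2% of its distinct 31-base stretches also occur elsewhere in the annotated transcripts, and its reads were divided fractionally in 16 of 16 libraries. Summed with Gbp10 and Gm43302, the genes that share most with it, the log2 fold change was -3.18 ± 0.39 (adjusted p = 6.42e-05).

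Gbp9, also seen on Toxoplasma vacuoles, had 1.56, 1.46, 1.37 and 1.405 CPM in TCKO, against 5.54, 6.63, 5.60 and 5.21 CPM in T. The TCKO libraries were tightly grouped below all T libraries, and Gbp9 fell by 1.98 ± 0.24 (adjusted p = 6.22e-05). Gbp4, reported to restrain Irf7 and so type I interferon production, had 1.69, 3.17, 1.52 and 2.03 CPM in TCKO, against 5.57, 6.27, 3.36 and 4.59 CPM in T. TCKO replicate 3 came close to T replicate 4 without overlap, and the fall of 1.23 ± 0.27 was the smallest of the 8 (adjusted p = 0.00673).

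Gbp8 was the exception and had the fewest reads of the 9 in TCKO and in T. It had 0.130, 0.570, 0.445 and 0.312 CPM in TCKO, against 0.127, 0.586, 0.896 and 0.281 CPM in T. The groups overlapped and replicate 2 was lowest in both. Its log2 fold change was -0.35 ± 0.58 (adjusted p = 0.746, 95% interval -1.57 to 0.87), so a difference was not detectable at this depth, with 140 estimated reads over all 16 libraries. Without T replicate 4 and WT replicate 1, the libraries rich in choroid plexus markers, it was 0.15. Of its 31-base stretches, 31.1% occur in other genes, most often in Gbp11.

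Of the family genes outside the 9, Gbp10 fell by 3.42 ± 0.92 in TCKO against T (adjusted p = 0.0220), with 0.417 ± 0.613 CPM in TCKO and 4.71 ± 0.779 CPM in T (SD, n = 4 each). Its reads are uncertain because 80.8% of its 31-base stretches occur in Gbp6. Gbp11, annotated as a polymorphic pseudogene, had a log2 fold change of -0.02 ± 0.54 (adjusted p = 0.986), at 0.863 ± 0.520 CPM in TCKO and 0.875 ± 0.216 CPM in T.

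Without the transgene, loss of Ch25h went with no called change in the family. In CKO against WT, 0 of the 8 genes with reads passed the test, and 0 had an unadjusted p under 0.05. Across all genes the test called 2 of 18565, or 0.0108%, and Ch25h itself was among them (adjusted p = 0.0192). A count of 0 therefore does not set the family apart from other genes. DESeq2 and limma voom also called 0 of the 8. The fold changes ran from -0.35 ± 0.29 for Gbp3 to 0.73 ± 0.40 for Gbp5, and all 8 genes overlapped between CKO and WT, where 4.88% of all genes were higher and 4.06% lower with no overlap. The 95% intervals were -0.78 to 0.52 for Gbp2, -0.97 to 0.26 for Gbp3 and -0.54 to 0.27 for Gbp7. For Gbp5 the interval was -0.10 to 1.57, and without CKO replicate 4 its fold change was 0.09, so the difference in means rests on that library.

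The difference between the knockout effect with the transgene and without it was tested as an interaction, which also uses the libraries behind the choice of genes. Of the 8 genes, 6 passed the test, all with a lower value for the transgenic mice, where 2.45% of all genes were called in that direction, 0.695% in the other and 3.15% in either. The interaction was -3.52 ± 0.55 for Gbp5 (adjusted p = 0.00372), -2.71 ± 0.54 for Gbp6 (adjusted p = 0.0124) and -2.47 ± 0.42 for Gbp2 (adjusted p = 0.00566). It was -1.96 ± 0.40 for Gbp3 (adjusted p = 0.0156), -1.94 ± 0.34 for Gbp9 (adjusted p = 0.00611) and -1.76 ± 0.27 for Gbp7 (adjusted p = 0.00362). Gbp4, at -1.16 ± 0.39 (adjusted p = 0.113), and Gbp8, at -0.23 ± 0.89 (adjusted p = 0.927), did not pass. Gbp4 passed when TCKO replicate 3 was left out (adjusted p = 0.0438). Gbp2b has no interaction value because CKO and WT had 0 reads.

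**Figure D2:**
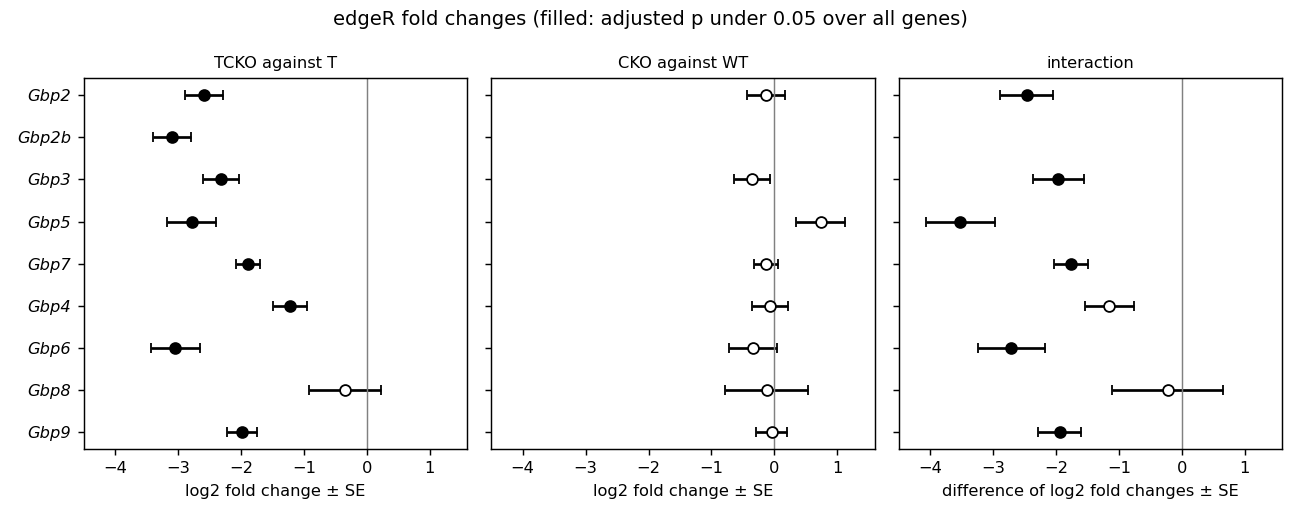
Log2 fold changes with SE (horizontal axis) for each gene in TCKO against T, CKO against WT and their interaction, with filled points for adjusted p under 0.05. Filled points number 8 in TCKO against T, 0 in CKO against WT and 6 in the interaction, and Gbp2b is drawn in the first panel alone.

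The transgene contrasts, which the choice of genes used, are given as values. In T against WT, Gbp5 differed by 3.29 ± 0.40 on the log2 scale, Gbp3 by 3.25 ± 0.30, Gbp2 by 3.23 ± 0.31 and Gbp6 by 2.91 ± 0.38. The differences were 2.02 ± 0.19 for Gbp7, 1.75 ± 0.28 for Gbp4, 1.61 ± 0.24 for Gbp9 and 1.20 ± 0.60 for Gbp8. The T libraries were all above the WT libraries for 7 of the 8 genes, with Gbp8 the exception, as for 13.3% of all genes, and nothing is read from this count because the choice of genes used this contrast. Gbp2b, with 2286 reads over T and 0 over WT, was at least 755-fold higher in T, with a floor of 3 counts over the group.

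In TCKO against CKO the log2 differences were 1.28 ± 0.29 for Gbp3, 0.97 ± 0.63 for Gbp8, 0.77 ± 0.30 for Gbp2 and 0.59 ± 0.28 for Gbp4. They were 0.27 ± 0.19 for Gbp7, 0.20 ± 0.39 for Gbp6, -0.23 ± 0.39 for Gbp5 and -0.33 ± 0.25 for Gbp9, with a median of 0.43 over the 8. Gbp3, at 17.9 ± 8.42 CPM in TCKO and 7.38 ± 1.15 CPM in CKO, was higher in every TCKO library, beside 5.32% of all genes higher with no overlap. Gbp2b had 240 reads over TCKO and 0 over CKO, at least 67.3-fold higher in TCKO with the same floor. Set beside WT, TCKO overlapped in 8 of the 9 genes, and Gbp2b alone was higher with no overlap, beside 3.14% of all genes.

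Levels can be compared between genes only per transcript length, in TPM (transcripts scaled to a common total). The 9 genes summed to 22.5 ± 8.60 TPM in TCKO, 111 ± 16.8 TPM in T, 13.7 ± 2.46 TPM in CKO and 14.7 ± 4.72 TPM in WT (SD, n = 4 each). In T the order of mean levels was Gbp3 at 45.4 ± 8.33 TPM, Gbp2 at 24.4 ± 2.38 TPM, Gbp7 at 15.4 ± 3.70 TPM, Gbp6 at 9.71 ± 2.30 TPM and Gbp2b at 8.58 ± 1.67 TPM. Below these were Gbp5 at 3.94 ± 0.704 TPM, Gbp9 at 2.03 ± 0.281 TPM, Gbp4 at 1.68 ± 0.493 TPM and Gbp8 at 0.267 ± 0.186 TPM. The ranges of Gbp7 and Gbp6, of Gbp6 and Gbp2b, and of Gbp9 and Gbp4 overlapped over the 4 T libraries, and the other neighbours in that order did not.

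Gbp3 made up 40.7% of the family sum in TCKO, 40.6% in T, 30.98% in CKO and 32.8% in WT. Gbp7 made up 20.4% in TCKO, 13.7% in T, 27.4% in CKO and 28.3% in WT, with TCKO libraries from 16.7% to 25.5% and T libraries from 11.1% to 15.4%. Gbp2b made up 4.64% in TCKO and 7.75% in T. Gbp3 was the top gene of the family in every library except CKO replicate 1 and WT replicate 5, where Gbp7 was.

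**Figure D3:**
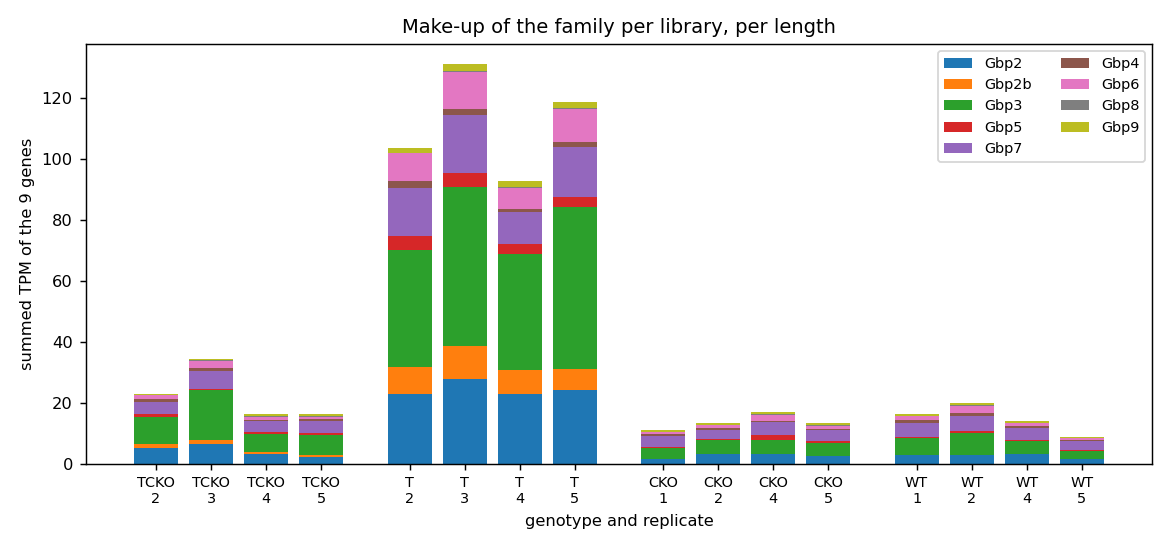
Summed TPM of the 9 genes in each library (stacked bars from 0, 1 colour a gene) by genotype and replicate. The 4 T libraries reach 92.7 to 131 TPM and the 4 TCKO libraries 16.1 to 34.4 TPM, with 2 of these within the 11.0 to 16.96 TPM of CKO and the 8.72 to 19.97 TPM of WT.

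Members tended to be high in the same libraries. TCKO replicate 3 was the highest of its genotype for 7 of the 9 genes, and T replicate 3 for 6 of the 9. CKO replicate 4 was highest for 6 of the 8 genes read there, WT replicate 2 for 7 of 8, and WT replicate 5 was lowest for 8 of 8. How often these libraries were highest or lowest over all genes was not counted. Some members also share sequence, so the counts are a description.

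The genes next to the clusters were compared in the same way, taking the 3 nearest protein-coding genes on each side. Around the chromosome 3 cluster, 1 of 6 fell in TCKO against T, Pkn2, a protein kinase gene, by 0.68 ± 0.21 (adjusted p = 0.0393), and the 6 ran from -0.68 to 0.07. Over all genes tested, 8.05% were called lower and 4.81% higher in this comparison. Around the chromosome 5 cluster 0 of 6 passed, with values from -0.38 to 0.58. In CKO against WT and in the interaction, 0 of the 12 neighbours passed, beside 0.0108% and 3.15% of all genes.

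**Figure D4:**
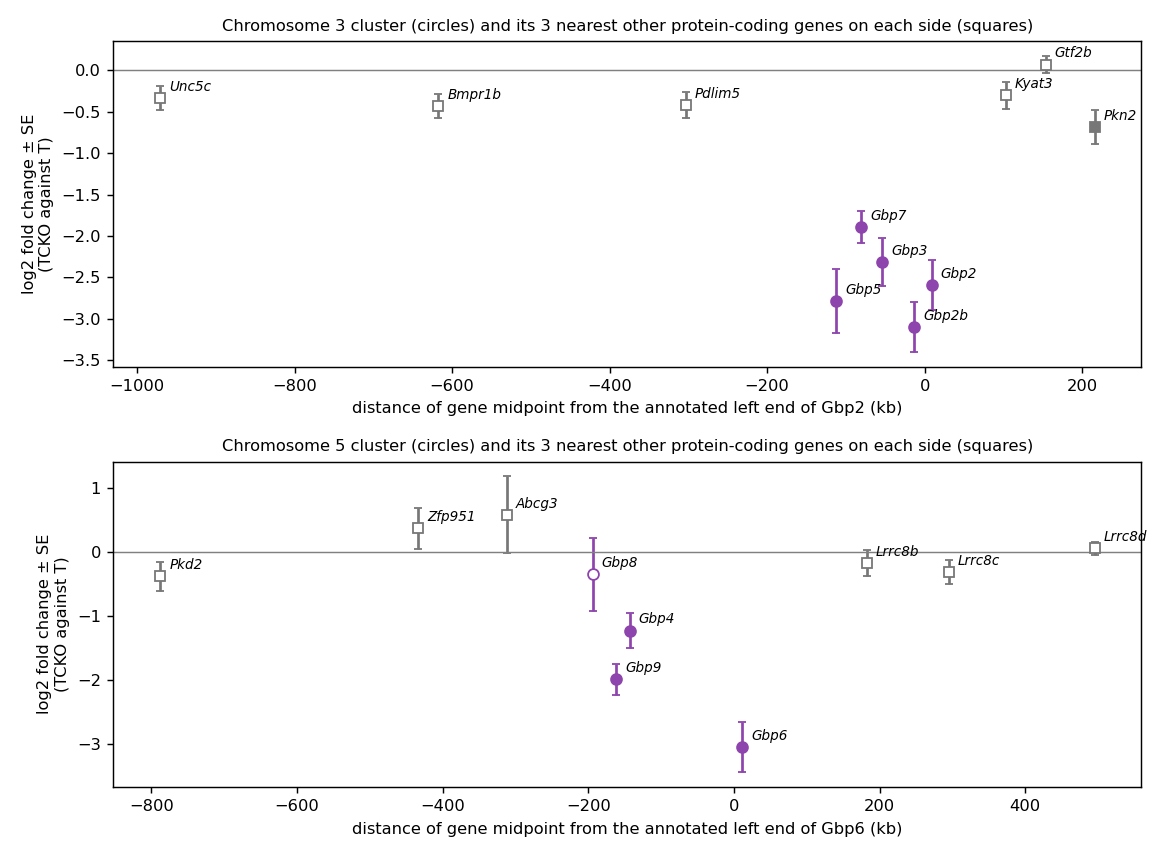
Log2 fold change with SE in TCKO against T (vertical axis) by distance in kb from the left end of Gbp2 (upper panel, chromosome 3) or Gbp6 (lower panel, chromosome 5). Circles are guanylate-binding protein genes and squares their neighbours, filled for adjusted p under 0.05; the family members lie down to -3.10 and the neighbours between -0.68 and 0.58.

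Gbp2b stood apart in being read only with the transgene. Over the whole table, 3 genes had 0 reads in all 8 libraries without the transgene and at least 1 read in all 8 with it, and all 3 are on chromosome 3; 0 genes had the opposite pattern. The others were 4930590L14Rik, a long noncoding RNA gene 1641.6 kb from Gbp2b (chr3:140951876-140953247), and Gm6214, a processed pseudogene 1755.2 kb from it (chr3:140839097-140839637). 4930590L14Rik had 22, 20, 18 and 18 estimated reads in TCKO, against 19, 11, 6 and 31 in T. Those groups overlapped, and its log2 fold change in TCKO against T was 0.44 ± 0.52 (adjusted p = 0.635), beside -3.10 ± 0.30 for Gbp2b. Gm6214 had 2, 5, 4 and 3 reads in TCKO, against 2, 3, 3 and 3 in T, too few to pass the filter. At most 1 read without the transgene and at least 5 with it left 2 genes, Gbp2b and 4930590L14Rik.

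As background, published mapping of the PS19 line places its transgene on chromosome 3, and inbred mouse strains are known to carry either an interferon-inducible or a non-inducible allele of Gbp2b. The labels used here give neither the insertion site nor the strains crossed. In comparisons of mice with and without the transgene, the transgene and any chromosome 3 segment inherited with it cannot be told apart. TCKO against T compares mice that all carry the transgene. Whether both genotypes also carry the same chromosome 3 segment and Gbp2b allele is not in the labels. Loss of Ch25h and any segment inherited with the knockout cannot be told apart.

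**Figure D5:**
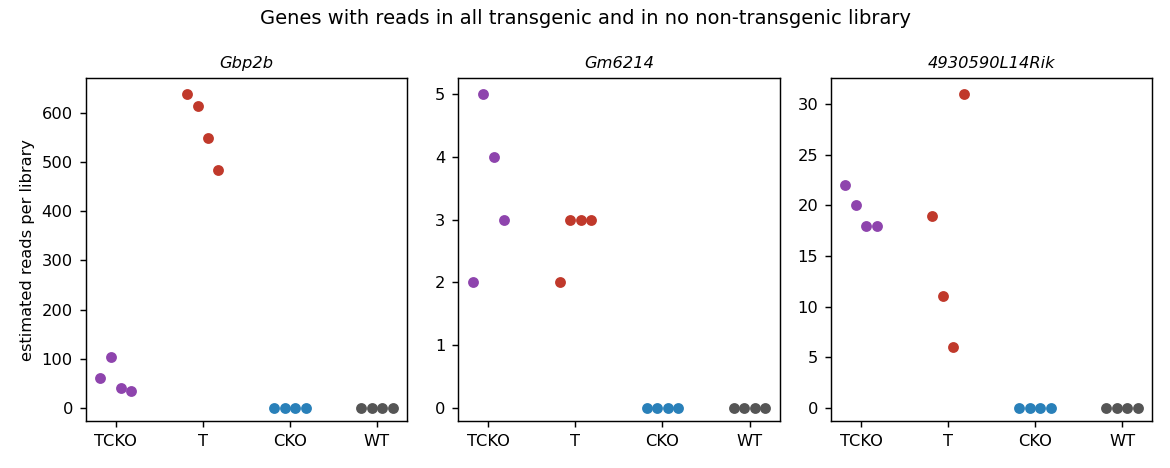
Estimated reads per library (vertical axis, own linear scale per gene) by genotype for the 3 genes read in every transgenic and in no non-transgenic library. Gbp2b has 35 to 103 reads in TCKO and 484 to 639 in T, while 4930590L14Rik and Gm6214 overlap between TCKO and T.

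Among genes outside the family, the profiles nearest to the family mean over the 16 libraries were those of H2-D1, H2-K1, Psmb8, Apobec1 and C1qb. Likeness was the root mean square difference in log2 CPM, each gene centred on its own mean, over 18554 genes. The family mean took in all 9 genes, Gbp2b with its libraries at 0 among them. The order of likeness therefore rests in part on values that the choice of genes used, and is a description. It was 0.243 for H2-D1 and 0.247 for H2-K1, which encode MHC class I heavy chains, 0.252 for Psmb8, an immunoproteasome subunit, 0.282 for Apobec1, an RNA-editing deaminase, and 0.294 for C1qb, a complement subunit. Within the family it ran from 0.218 for Gbp3 to 1.15 for Gbp8, and to 3.11 for Gbp2b with its libraries at 0. H2-D1 averaged 156 CPM in TCKO, 816 CPM in T, 77.5 CPM in CKO and 91.1 CPM in WT.

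The genes that work with the family were counted from lists chosen with earlier results of these data known. Beside each count in TCKO against T stand the 8.05% of all genes tested that were called lower and the 4.81% called higher. Of the immunity-related GTPases, which act beside guanylate-binding proteins on vacuoles, 8 of 8 tested fell in TCKO against T, with a median of -2.34. Irgm1 fell by 2.30 ± 0.22 (adjusted p = 1.42e-05), Tgtp2 by 2.32 ± 0.29 (adjusted p = 6.76e-05) and Ifi47 by 3.19 ± 0.42 (adjusted p = 0.000102). Of 13 other dynamin-like and giant GTPases, 3 fell and 2 rose, with a median of -0.01. Mx1, an antiviral GTPase, had 0.0238 ± 0.0475 CPM in TCKO and 4.79 ± 0.573 CPM in T, Mx2 fell by 2.54 ± 0.52 (adjusted p = 0.00413), and Mfn2, which fuses mitochondria, rose by 0.62 ± 0.12 (adjusted p = 0.00331). Mx1, one of the 3 that fell, could pass the filter on low counts only through T.

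Upstream, 5 of 8 tested genes of interferon gamma signalling fell and 0 rose, with a median of -0.63. The factor Irf8 fell by 2.45 ± 0.21 (adjusted p = 7.58e-06) and Irf1 by 1.16 ± 0.18 (adjusted p = 0.000422). Interferon gamma itself had 3 reads over TCKO, 4 over T and 0 over CKO and WT, too few to pass the filter. Of type I interferon signalling, 6 of 8 tested fell, led by Irf7 at -3.37 ± 0.44 (adjusted p = 0.000106), Usp18 at -3.57 ± 0.52 (adjusted p = 0.000246) and Irf9 at -2.02 ± 0.30 (adjusted p = 0.000276).

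Downstream, 5 of 8 inflammasome genes fell, with a median of -1.58. Pycard, the adaptor ASC, fell by 1.97 ± 0.25 (adjusted p = 7.89e-05), Casp4, the sensor of cytosolic lipopolysaccharide, by 2.67 ± 0.39 (adjusted p = 0.000253) and Il1b by 2.02 ± 0.39 (adjusted p = 0.00265). Of 6 prenylation enzyme genes, 0 passed the test, and their median was -0.09. Of 10 genes of ATG8 conjugation, which directs the GTPases to vacuoles, Gabarapl1 rose by 0.39 ± 0.12 (adjusted p = 0.0420), Gabarap fell by 0.25 ± 0.08 (adjusted p = 0.0383) and 8 did not pass. In CKO against WT, 0 genes passed in each of these lists, where the test called 2 of 18565 genes in all.

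Markers of immune and glial cells were in part lower in TCKO than in T, where 8.05% of all genes tested were called lower. Microglia markers summed to 625 to 1055 CPM in TCKO, 1687 to 2219 CPM in T, 523 to 548 CPM in CKO and 466 to 644 CPM in WT, and 8 of 10 fell in TCKO against T. Astrocyte markers summed to 5614 to 8717 CPM in TCKO, 11126 to 14694 CPM in T, 4941 to 5507 CPM in CKO and 5789 to 6471 CPM in WT, and 4 of 8 fell. The other 2 microglia markers and the other 4 astrocyte markers did not pass. Gfap alone averaged 1641 CPM in TCKO and 6533 CPM in T, and so made up much of the difference in the astrocyte sums. Astrocyte and microglia markers had no gene at 0 in a whole genotype.

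T cell markers were low and summed to 4.53 to 8.36 CPM in TCKO, 19.8 to 35.0 CPM in T, 3.93 to 5.99 CPM in CKO and 4.93 to 6.52 CPM in WT, with 9 of 10 falling in TCKO against T and 1 at 0 in CKO. Cd3d averaged 0.0817 CPM in TCKO and 1.27 CPM in T, and Cd8b1 averaged 0.174 and 1.89 CPM. Markers as low as these outside T could pass the filter on low counts only through T. The count of 9 is therefore not set against the share over all genes. Border macrophage and monocyte markers summed to 5.03 to 6.77 CPM in TCKO, 14.5 to 44.7 CPM in T, 3.52 to 8.49 CPM in CKO and 7.20 to 10.7 CPM in WT, and 5 of 9 fell. Ms4a7 alone averaged 1.04 CPM in TCKO and 15.98 CPM in T, and so made up much of the difference in these sums. The highest T sum was in T replicate 4, which was rich in choroid plexus markers. The other T libraries summed to 14.5 to 29.9 CPM. Endothelial markers summed to 147 to 175 CPM in TCKO and 188 to 242 CPM in T, and 2 of 8 fell. Of choroid plexus markers 0 of 9 passed, and of hippocampal neuron markers 2 of 8 rose. The part of these cells in the fall of the guanylate-binding protein genes was not tested.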

How the data were processed

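Hippocampal RNA of 16 mouse libraries was made into libraries with the SMARTer Ultra Low kit, which primes on poly(A) tails, per the labels' protocols. The submitters' processing notes name bcl2fastq, STAR 2.5.1a, Subread, featureCounts 1.4.6-p5 and GRCm38, without roles. The deposited files hold estimated counts, which are not all whole (74.5% of values above 0 are), TPM and effective lengths per gene, per the file headers. Tool and annotation are not given in the sources used here. Values of the deposited series table and library files matched within 0.01 reads in 887792 values.

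Counts were rounded, filtered with filterByExpr (18565 genes tested), TMM-normalized and fitted in edgeR 4.0.16 (R 4.3.3) with 1 mean per genotype over 16 libraries, using the quasi-likelihood test and Benjamini-Hochberg adjustment over all genes, with calls at an adjusted p under 0.05. The standard error was the fold change over the root of F. TPM was used to compare levels between genes. The interaction is TCKO against CKO minus T against WT. Gbp2b was left out where both groups had 0 reads. Intervals use the t distribution with the fit's degrees of freedom. Totals were 15064309 to 34348284 estimated reads per library.

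The text names all 9 members, Gbp10 and Gbp11, Ch25h, at most 3 genes of smallest p per list (1 such gene is not reported here), the 3 nearest protein-coding genes on each side of a cluster, genes read only with the transgene, and the 5 nearest profiles. Members and lists (immunity-related and dynamin-like GTPases, interferon gamma and type I signalling, prenylation, ATG8 conjugation, inflammasome and 7 sets of cell markers) were chosen with earlier results of these data known. Alternatives were other scalings and filters, DESeq2 1.42.0, limma 3.58.1 voom, a replicate block, each replicate left out, and only the libraries compared. Deviations of same-numbered T and WT libraries from their group means correlated weakly (r of 0.10, 0.14 and 0.25 over 3 shared numbers). With the block the median in T against WT was 2.32. Left out were 287 lines that repeat a gene. The testing code was tested on simulated data.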

Additional observations from a re-analysis of the deposited data

Results flagged for a closer look

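Of 38 groups of 4 libraries tested for a value far from the others, 1 stood out, where chance gives about 1 in 20. It was Gbp5 in CKO replicate 4, at 3.45 CPM, whose gap to the next library was 0.850 of the group's range.

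The Ch25h knockout effect with the transgene differed from that without it, by the interaction test, for 6 of the 8 genes tested. That test also uses the libraries behind the choice of genes. Over all genes it called 2.45% lower and 3.15% in either direction. The differences were -3.52 for Gbp5, -2.71 for Gbp6, -2.47 for Gbp2, -1.96 for Gbp3, -1.94 for Gbp9 and -1.76 for Gbp7 on the log2 scale.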

How the results depend on the processing

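The 8 genes called lower in TCKO against T and the 0 called in CKO against WT were the counts under every alternative run, and the interaction called 6 in each it could be fitted in, except 7 without TCKO replicate 3. Gbp8 did not pass the filter in some alternatives, which then tested fewer genes. With the replicate block the counts were 8, 0 and 6. Deviations of same-numbered libraries correlated at -0.12 to 0.14 in TCKO and T, with 1 of 4 above 0.1. In CKO and WT they correlated at -0.044 to 0.235. These values do not settle whether same-numbered libraries were handled together. With each replicate left out in turn, the median in T against WT was 2.28 to 2.67, and that in TCKO against CKO was 0.23 to 0.55. The median in T against WT was 2.47 with 8 genes, 2.96 with at least 1 CPM in 4 libraries and 2.93 with only the libraries compared; both of these tested 7 genes. The ratio of Gbp3 to Gbp7 in T was 3.02 by TPM and 2.05 by CPM, which ignores length. Signs turned for values that passed no test or had none. In CKO against WT, Gbp8 was 0.074 in limma voom, beside -0.12, and values with each replicate left out were -0.31 to 0.080 for Gbp2, -0.22 to 0.025 for Gbp4, -0.61 to 0.031 for Gbp6, -0.39 to 0.31 for Gbp8 and -0.23 to 0.23 for Gbp9. Gbp8 was -0.67 to 0.17 in TCKO against T and -0.66 to 0.29 in the interaction. Leaving out the libraries rich in choroid plexus markers, an alternative chosen after seeing the data, as was the sum of Gbp6, Gbp10 and Gm43302, gave 0.15 and 0.32 for Gbp8. In TCKO against CKO, Gbp5, at -0.23, was -0.45 to 0.44 with each replicate left out and 0.059 in limma voom, and Gbp6, at 0.20, was -0.18 to 0.50 with each replicate left out and -0.15 with the replicate block. The cause of these turns was not tested. Calls over all genes in TCKO against T numbered 2388, and from 1294 without T replicate 2 to 3278 without T replicate 5. Those of the interaction numbered 584, and from 298 without T replicate 2 to 1266 without T replicate 5, and 1250 in DESeq2. Those of CKO against WT numbered 2, and from 0 to 8 over the alternatives in edgeR and limma voom, and 110 in DESeq2.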
